A study of Mus musculus with 7 samples.

Results

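Regional patterning transcription factors were examined in neural cultures derived from a mouse embryonic stem cell line. The set is a given list of 41 genes, looked up by their Ensembl identifiers. Of these, 27 were among the 13971 genes that had a transcript start or transcript end in the deposited tables. It is made up of 18 Hox genes, 22 other genes that mark positions along the axes of the neural tube, and Foxj1, a regulator of motile cilia that was on the list although it is not a positional gene. Total RNA gave 7 libraries, 1 from a control culture and 1 from a culture given each of 6 insecticides. These were chlorpyrifos (an organophosphate), DDT (an organochlorine), rotenone (an inhibitor of mitochondrial complex I), carbaryl (a carbamate), deltamethrin (a pyrethroid) and imidacloprid (a neonicotinoid). All came from wild-type cells of the stem cell line B6G-2, which formed ectoderm in embryoid bodies for 6 days and were then grown as neural progenitors with bFGF and EGF in RHB-A medium on poly-ornithine and laminin. At day 14 the progenitors were put in BrainPhys with B27 to differentiate, and each insecticide was given for 1 day. The control went through the same differentiation, and the labels give neither a dose nor a vehicle. Brain is the labelled tissue, but every culture came from the same stem cell line. The stated aim was to study how insecticides act on neural development. Each group is a single library, so differences below are unreplicated and no test between groups was possible.

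The neural tube is divided into regions by transcription factors that are switched on in overlapping bands. Otx genes mark the forebrain and midbrain, En genes the midbrain and the isthmus, the boundary between midbrain and hindbrain, and Hox genes are used in nested domains from the hindbrain to the end of the spinal cord. Across the dorsoventral axis, Pax3, Pax7, Msx1 and Zic1 are dorsal, while Pax6, Dbx1, Irx3 and the Nkx6 genes occupy intermediate and ventral bands that read the Sonic hedgehog signal. Meis proteins bind DNA together with Hox and Pbx proteins but also act in forebrain and midbrain without Hox.

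Each library listed between 36986 and 37716 start and end events in FPKM, a fragment count divided by the length of the transcript and the size of the library. A gene's start total and end total are each the sum over its distinct events and should be equal, and a gene's level is their mean. Levels of different genes can be compared because FPKM is per length. The depth is unknown, since the files give no read counts. Reaching 1 FPKM is meant below as a mean over the 7 libraries of the larger of the 2 totals. Of the markers checked, 7 of 10 neural progenitor genes and 9 of 10 neuronal genes were listed, with Vim at 986 to 1221 FPKM and Dcx at 22.7 to 27.0 FPKM. The progenitor genes not listed were Sox1, Sox2 and Sox3, which have a single exon and so no start or end event. The neuronal gene not listed was Tubb3, which has several exons and is a common marker of neurons, so a gene that is not listed is not thereby shown to be unexpressed. Among the markers that entered the comparisons, Syt1, a synaptic vesicle gene, and Foxj1 passed 2-fold against control, and Syt1 was higher than control in all 6 insecticide libraries, by 1.61 to 1.95 on the log2 scale. Markers with a start total only were not compared, and among them were larger differences. Fabp7, a lipid-binding protein of radial glia, had start totals of 2620 FPKM in control, 2452 in chlorpyrifos, 1398 in DDT, 66.2 in rotenone, 762 in carbaryl, 1295 in deltamethrin and 2521 in imidacloprid, with no end total. Rotenone was far the lowest library for it. Stmn2, a neuronal gene, ranged from 20.02 FPKM in control to 51.5 FPKM in chlorpyrifos. Of 7 endothelial and blood genes 1 was listed, and 1 of 7 pluripotency genes and 0 of 8 endoderm genes reached 1 FPKM in the mean over libraries. Of 8 astrocyte genes 8 were listed and 5 reached 1 FPKM, and their levels summed to between 193 and 212 FPKM. Of 8 oligodendrocyte genes 6 were listed, with a sum of 84.6 to 161 FPKM, most of it Olig2 (77.3 to 155 FPKM). A missing total counts as 0 in these levels, and Olig2 had a start total only in DDT and imidacloprid. The highest value, in imidacloprid, rests on its start total of 140 FPKM. Olig2 end totals were 110 FPKM in DDT and 155 to 169 FPKM in the other libraries. Mesoderm and fibroblast markers summed to between 22.9 and 33.4 FPKM, and neural crest markers to between 11.9 and 15.7 FPKM. These are bulk libraries, in which fewer cells of a type and less RNA per cell cannot be told apart.

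The expressed members were those of the forebrain and midbrain, with dorsal, intermediate and Meis genes beside them, and the Hox genes were not listed or under 1 FPKM. Of the 41 members, 14 were listed in no library, although all of them have several exons, and 9 more stayed under 1 FPKM. The remaining 18 reached a mean of 1 FPKM by the larger of the start and end totals, and none of these is a Hox gene. Among them, 11 had agreeing ends and entered the comparisons. The ends of Dlx1, Lhx2, Pax6 and Dbx1 disagreed, Emx2 and Irx5 had a start total only, and Dlx2 had an end total only. Of the 18, 11 varied by less than 1.5 times from the lowest to the highest library. Only Dbx1 and Foxj1 varied 2-fold or more.

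**Figure D1:**
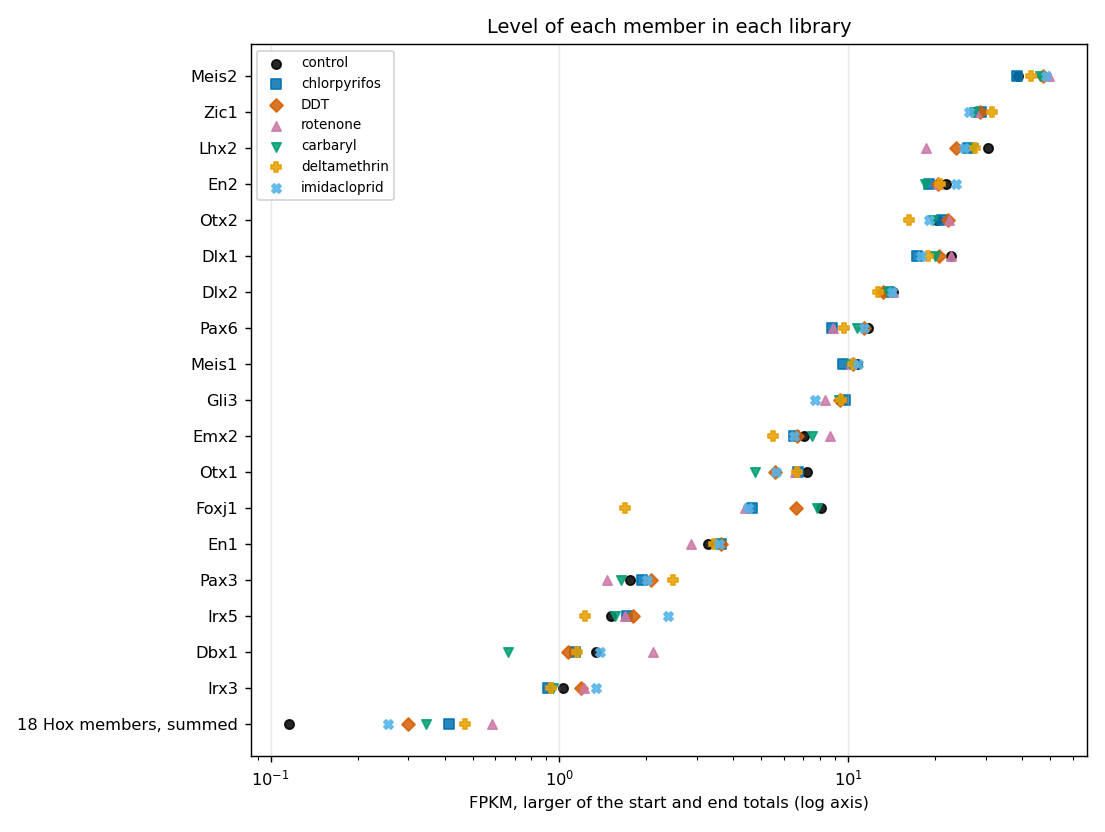
FPKM of each member with a mean of at least 1 FPKM in each of the 7 libraries, on a log axis, with the start total or the end total shown according to which has the larger mean; the lowest line is the sum of the start totals of the 18 Hox members. The libraries lie close together for most genes, Foxj1 and Dbx1 spread the most, and the Hox sum stays below 1 FPKM.

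Hox members were listed rarely and at low values. Of the 18 Hox members, 10 were listed in no library, 8 in at least 1 and 0 in all 7. The highest value of any of them was 0.383 FPKM, for Hoxb2 in the rotenone library. Hoxb2, a hindbrain gene, was also listed at 0.206 in chlorpyrifos, 0.231 in carbaryl and 0.171 FPKM in deltamethrin, and was not listed in the other libraries. Hoxb9, a gene of the more posterior cord, was listed at 0.209 in chlorpyrifos, 0.264 in DDT and 0.299 FPKM in deltamethrin. Hoxb3 was listed in imidacloprid alone (0.255 FPKM) and Hoxb4 in DDT alone (0.0357 FPKM). These values were scattered over the libraries and over the cluster, and no paralog group was listed throughout. Hoxb6, Hoxb8, Hoxd4 and Hoxd8 were also listed in 1 to 3 libraries each, at 0.16 FPKM or less. The Hox members together reached a level of 0.06 FPKM in control, 0.50 in chlorpyrifos, 0.30 in DDT, 0.49 in rotenone, 0.29 in carbaryl, 0.47 in deltamethrin and 0.26 in imidacloprid. The control library was lowest, but every sum rests on genes under 1 FPKM, where the files do not separate low expression from an estimate near 0. Of 21 other Hox genes, 20 were not listed and Hoxa9 did not pass 0.0447 FPKM. A share of Hox expression by paralog group was not formed at these levels.

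Otx2, which is needed to form the forebrain and midbrain, lies on chromosome 14 (GRCm38 chr14:48657677-48673819, minus strand). Its level was 20.2 FPKM in control, 20.8 in chlorpyrifos, 22.1 in DDT, 20.7 in rotenone, 18.8 in carbaryl, 16.0 in deltamethrin and 18.9 in imidacloprid. Deltamethrin was the lowest and DDT the highest library, and control lay between them. Otx1, its relative in the cortex and midbrain (chr11:21994764-22002897, minus strand), stood at 7.20, 6.69, 5.29, 6.56, 4.77, 6.64 and 5.61 FPKM in the same order. Control was the highest library for Otx1 and carbaryl the lowest.

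Telencephalic members were present in every library. Lhx2, a selector gene of the cortex and eye field (chr2:38339281-38369733, plus strand), had start totals of 30.4, 26.1, 23.7, 18.6, 27.1, 27.5 and 25.2 FPKM and end totals between 16.4 and 23.0 FPKM. Its start total was highest in control and lowest in rotenone, while its end total was highest in imidacloprid and lowest in carbaryl, so that the 2 readouts give different orders. Emx2, a dorsal telencephalon gene (chr19:59458372-59465357, plus strand), had start totals of 7.02, 6.48, 6.64, 8.63, 7.49, 5.48 and 6.47 FPKM, highest in rotenone and lowest in deltamethrin.

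The linked genes Dlx1 and Dlx2, which act in GABAergic neurons of the ventral forebrain, lie next to each other on chromosome 2 on opposite strands (chr2:71528113-71533981 and chr2:71543408-71546754). Dlx2 had end totals from 12.6 to 14.3 FPKM, the narrowest range of the fore- and midbrain members. Dlx1 start totals were 22.7, 17.3, 20.7, 22.8, 19.9, 18.9 and 17.9 FPKM. Its end total was 13.0 FPKM in control and between 0 and 0.949 FPKM in the 6 insecticide libraries. Start totals in those libraries were still 17.3 to 22.8 FPKM, so the end total was not read as a change in Dlx1 expression. Dlx1 and Otx2, among other members, have antisense genes, and whether reads were assigned by strand is not stated, so reads of such pairs cannot be told apart. The inner exon at 71530957 to 71531156 was listed as an alternative form at 3.81 FPKM in control and at 13.2 to 20.6 FPKM in the others, again with control apart.

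En2 and En1, the Engrailed genes of the midbrain and isthmus, were expressed together with these forebrain genes. En2 (chr5:28165694-28172166, plus strand) stood at 21.8 FPKM in control, 19.1 in chlorpyrifos, 20.4 in DDT, 20.4 in rotenone, 18.5 in carbaryl, 20.7 in deltamethrin and 23.6 in imidacloprid. En1 (chr1:120602418-120607992, plus strand) was lower, with 2.86 FPKM in rotenone and 3.28 to 3.64 FPKM elsewhere. Gbx2, which marks the hindbrain side of the isthmus, was not listed in any library. The 8 fore- and midbrain members summed to a level of 105.8 FPKM in control and to between 88.3 and 95.0 FPKM in the insecticide libraries. Control stood highest in this sum, and the Dlx1 end total listed there is part of it. On start totals alone the sum was 113 FPKM in control and 98.9 to 102 FPKM in the others. A missing total counts as 0 in these sums, so Dlx2, with an end total only, adds nothing to the start sum. The levels of Dlx2 and Emx2 in the first sum are lowered in the same way.

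Further regional genes that are not members were looked at for the same question. Of 16 other forebrain genes 10 reached 1 FPKM, among them Sp8 at start totals of 9.38 to 13.5 FPKM and Dlx5 at 8.33 to 10.5 FPKM. None of 11 other midbrain and isthmus genes reached a mean of 1 FPKM, and the highest single total was 1.27 FPKM, for Lmx1a in rotenone. Pax2, Pax5 and Wnt1, which act at the isthmus beside the En genes, were under 1 FPKM, and Fgf8 and the dopaminergic regulators Foxa2 and Pitx3 were not listed. Of 8 other hindbrain genes only Meis3 reached 1 FPKM, with start totals of 3.74 to 10.1 FPKM. Egr2, a gene of hindbrain segments, did not pass 0.414 FPKM.

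Of 30 further cord, dorsal and ventral genes, 10 reached 1 FPKM. Olig2, used in the motor neuron domain and in the oligodendrocyte lineage of brain and cord alike, had end totals of 110 to 169 FPKM. Its ends disagreed, since a start total was listed only in DDT (53.4 FPKM) and imidacloprid (140 FPKM). Zic2, a dorsal gene, stood at 26.3 to 31.2 FPKM. Mnx1 and Lhx3 of motor neurons and the posterior genes Cdx1, Cdx2 and Cdx4 were not listed. By these genes the cells resembled forebrain together with En-positive tissue, and no gene of the hindbrain list apart from Meis3, and none of the Hox and Cdx families, reached 1 FPKM. Those that are not listed rest on the absence of a line in the tables, and Atoh1 and Olig3 on these lists have a single exon. Whether the forebrain and En genes were in the same cells was not tested, as each library pools the culture.

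Among dorsal members, Zic1, which acts in dorsal neural tube and midline (chr9:91358058-91365810, minus strand), was the highest at 27.5, 28.8, 28.7, 27.6, 27.3, 31.5 and 26.1 FPKM, with deltamethrin highest. Gli3, the transcription factor that represses Sonic hedgehog targets (chr13:15463235-15730026, plus strand), lay between 7.54 FPKM in imidacloprid and 8.83 FPKM in chlorpyrifos. Pax3 (chr1:78101267-78197134, minus strand) was low, at 1.76, 1.93, 2.07, 1.46, 1.63, 2.48 and 2.01 FPKM, again highest in deltamethrin. Pax7 and Msx1 were not listed. The dorsal sum was 37.5 FPKM in control and 35.7 to 42.6 FPKM over the 7 libraries.

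Of the intermediate and ventral members, Pax6, which acts in cortical progenitors, the eye and the intermediate neural tube (chr2:105668900-105697364, plus strand), was the highest. Its start totals were 11.7, 8.77, 11.3, 8.87, 10.7, 9.70 and 11.3 FPKM and its end totals 6.46, 8.28, 6.10, 7.36, 5.33, 4.73 and 6.61 FPKM. The libraries with the lowest starts, chlorpyrifos and rotenone, had the highest ends, so no order of the libraries holds for both. Irx3 (chr8:91798525-91802067, minus strand) stood at 0.912 to 1.34 FPKM, and Irx5 of the same cluster (chr8:92357625-92376286, plus strand) at start totals of 1.23 to 2.37 FPKM, both highest in imidacloprid. Dbx1, an interneuron progenitor gene (chr7:49631499-49636849, minus strand), had end totals of 1.33, 1.13, 1.07, 2.10, 0.664, 1.15 and 1.38 FPKM. Rotenone was its highest library and carbaryl its lowest, at levels where a start total was listed only in imidacloprid. Nkx6-1 was not listed, and Nkx6-2 did not pass 0.871 FPKM and was listed in 4 libraries.

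Meis2 had the highest level of all members. It lies on chromosome 2 (chr2:115863064-116065839, minus strand) and stood at 38.7 FPKM in control, 38.7 in chlorpyrifos, 47.4 in DDT, 49.8 in rotenone, 48.2 in carbaryl, 43.2 in deltamethrin and 43.6 in imidacloprid. Control and chlorpyrifos were lowest. Meis1 (chr11:18879817-19018985, minus strand) stood at 9.59 to 10.6 FPKM, the narrowest range of any member in the comparisons. All 7 partner genes of the same homeodomain class reached 1 FPKM, with Pbx3 at 9.53 to 13.1 FPKM.

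Against control, 1 of the 11 members in the comparisons differed 2-fold or more, and that was Foxj1. A fold here is the difference of log2(FPKM + 1), which understates the change of low genes. In rotenone 1 of 11 members passed, beside 1.65% of all genes compared, and in deltamethrin 1 of 11, beside 1.73%. In the other comparisons 0 of 11 passed, beside 1.70% of all genes in chlorpyrifos, 1.74% in DDT, 2.10% in carbaryl and 1.79% in imidacloprid. At these background shares fewer than 1 member would be counted, so 0 of 11 is near the background. The 6 comparisons share the control library. The median fold of the members on the log2 scale was 0.00 in chlorpyrifos, 0.06 in DDT, -0.09 in rotenone, -0.05 in carbaryl, -0.03 in deltamethrin and 0.04 in imidacloprid, where the median over all genes was between 0.00 and 0.01.

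The next largest differences were those of Otx1 and Meis2. Otx1 was lower than control in all 6 insecticide libraries, by 0.51 on the log2 scale in carbaryl, 0.38 in DDT, 0.31 in imidacloprid, 0.12 in rotenone, 0.10 in deltamethrin and 0.09 in chlorpyrifos. Meis2 was higher than control in 5 of them, by 0.36 in rotenone, 0.31 in carbaryl, 0.29 in DDT, 0.17 in imidacloprid and 0.16 in deltamethrin, and by 0.00 in chlorpyrifos. The imidacloprid value rests on the Meis2 end total, 48.4 FPKM against 38.6 in control. By start totals Meis2 was 38.8 FPKM in imidacloprid and 38.7 in control. Neither gene reached 2-fold, and a single control library sets all 6 signs. For Otx2 the deltamethrin library was 0.32 lower than control, and for Pax3 it was 0.34 higher.

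**Figure D2:**
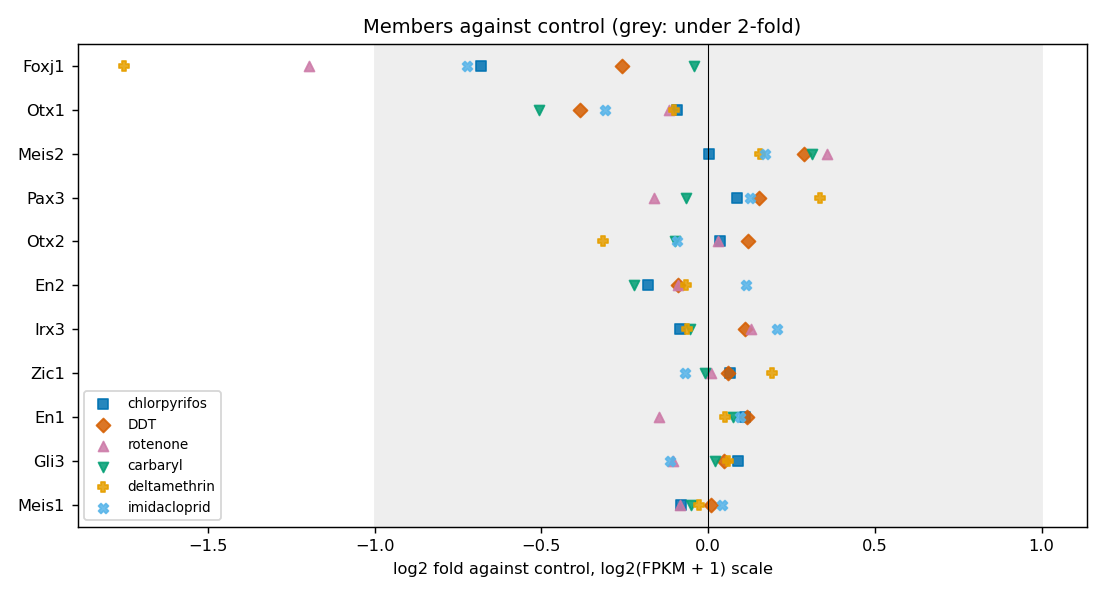
Log2 fold of each insecticide library against the control library for the 11 members in the comparisons, on the log2(FPKM + 1) scale, with the grey band covering differences under 2-fold. Foxj1 in rotenone (-1.20) and in deltamethrin (-1.75) lie outside the band.

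The members varied over the 7 libraries about as much as other genes did. The difference between the highest and the lowest library had a median of 0.34 on the log2 scale over the 11 members, beside 0.37 over all 6318 genes compared. It ran from 0.12 for Meis1 to 1.75 for Foxj1. It reached 2-fold for 1 of the 11 members (9.09%), beside 9.77% of all genes.

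Foxj1, which switches on the genes for motile cilia in ependymal cells (ENSMUSG00000034227, chr11:116330704-116335399, minus strand), was the member that differed most. Its start totals were 8.07 FPKM in control, 4.66 in chlorpyrifos, 6.59 in DDT, 1.52 in rotenone, 7.80 in carbaryl, 1.69 in deltamethrin and 4.49 in imidacloprid. Its end totals were the same except in rotenone, where the end total was 4.40 FPKM. Control was the highest library, carbaryl was close to it, and deltamethrin was lowest on the mean of both totals. The fold against control was -1.75 in deltamethrin, -1.20 in rotenone, -0.72 in imidacloprid, -0.68 in chlorpyrifos, -0.26 in DDT and -0.04 in carbaryl. The deltamethrin value passed 2-fold by either total. The rotenone value rests on the start total, and by end totals alone it did not pass. Rotenone was also the library with the lowest Fabp7 start total and the highest sum of mesoderm and fibroblast markers (33.4 FPKM), and the part of either in the Foxj1 value was not tested. Set against the median of the 6 other libraries instead of control, the fold was -1.30 in deltamethrin and -0.74 in rotenone.

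Other genes of motile cilia were low. Of 12 genes on that list, Foxj1 included, 8 were listed and 4 reached 1 FPKM. Mcidas and Gmnc, which commit cells to many cilia, and the axonemal motor genes Dnah5 and Dnah9 were not listed. Rfx2, which acts with Foxj1, stood at 1.77 FPKM in control, 1.57 in rotenone and 1.26 in deltamethrin, and Rfx3 at 3.24, 4.14 and 4.17 FPKM. Rsph1, a radial spoke gene, stood at 0.892 FPKM in control, 0.860 in rotenone and 1.67 in deltamethrin. Rfx3 and Rsph1 were above control in the deltamethrin library, where Foxj1 was lowest, and Foxj1 was the only gene of the list past 2-fold.

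**Figure D3:**
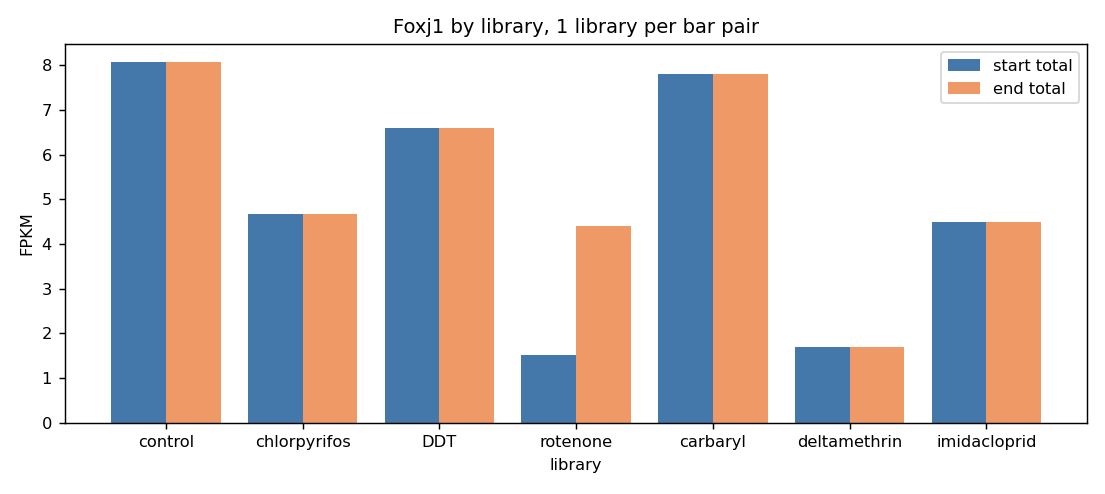
Foxj1 start total and end total in FPKM, 1 library per pair of bars. Control and carbaryl are highest, deltamethrin has the lowest end total (1.69 FPKM), and rotenone has the lowest start total and is the only library whose bars differ (1.52 and 4.40 FPKM).

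The tables also give which start a transcript used. Of members with several starts and a start total of at least 5 FPKM in both libraries, the share of a start moved by 25 percentage points or more against control in 1 of 10 in chlorpyrifos (all genes 15.2%), 2 of 10 in DDT (15.0%), 4 of 10 in rotenone (14.3%), 1 of 9 in carbaryl (14.9%), 1 of 10 in deltamethrin (14.4%) and 1 of 10 in imidacloprid (14.7%). Outside rotenone the counts are within 1 gene of the background. In rotenone the 4 were Otx2, Dlx1, Lhx2 and Meis1.

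Otx2 showed how its transcripts were spread over starts that lie well apart in the gene. The first exon at 48667428 to 48667644 held 50.9% of the start total in control, 44.1% in chlorpyrifos, 17.2% in DDT, 14.7% in rotenone, 17.3% in carbaryl, 45.5% in deltamethrin and 32.7% in imidacloprid. The downstream first exon at 48662444 to 48662872 held 25.1%, 28.8%, 62.8%, 50.2%, 50.9%, 16.2% and 31.7%. In DDT, rotenone and carbaryl the downstream start was the main one, and in control, chlorpyrifos and deltamethrin the upstream one. A first exon further upstream, at 48673652 to 48673899, was listed in deltamethrin alone, with 4.29 FPKM or 26.5% of the start total. The 250 bases before the upstream start are shown because it was the main start in control. They come from RefSeq on GRCm38.p6 and are given on the minus strand. Capitals mark the letters TAATTA, which read the same on both strands and form the core bound by many homeodomain proteins.

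Otx2 upstream start, chr14:48667645-48667894: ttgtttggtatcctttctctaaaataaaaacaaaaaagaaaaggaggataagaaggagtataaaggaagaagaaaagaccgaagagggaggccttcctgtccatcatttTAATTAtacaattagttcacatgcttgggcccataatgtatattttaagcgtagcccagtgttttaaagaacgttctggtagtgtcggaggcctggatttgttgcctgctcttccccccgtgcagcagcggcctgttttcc

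TAATTA was found in the 250 bases before 1590 of 32851 starts in the RefSeq table (4.84%) and before 2 of 32 starts of the 27 members in that table (6.25%), both of them Otx2 starts. The share for the members is near that for all starts, and a match of letters is not a site.

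Meis1 used its outer first exon, at 19018221 to 19018985, for 90.5% of the start total in control and 100% in 5 insecticide libraries, but for 13.1% in rotenone. There the first exon at 19016133 to 19016289 held 86.9%, or 8.92 FPKM. The level of Meis1 in rotenone was 9.59 FPKM, close to the 9.61 FPKM of chlorpyrifos, where the outer first exon held all of it. Dlx1 has a first exon that ends either at 71528723 or at 71530306. The short form held 79.7% in rotenone and 6.4% to 25.1% in the other libraries. Lhx2 lacked its outermost first exon, at 38339281 to 38339805, in rotenone, where the other libraries gave it 25% to 28.3%. The Lhx2 first exon at 38350759 to 38351893 held 95.6% in rotenone and 35.0% to 68.2% in the other libraries. Its share was 38.8% in control and 68.2% in imidacloprid, so Lhx2 passed the 25-point call there too. For these 3 genes rotenone was the library furthest from control. Each rotenone shift was between starts of 1 gene in 1 library.

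**Figure D4:**
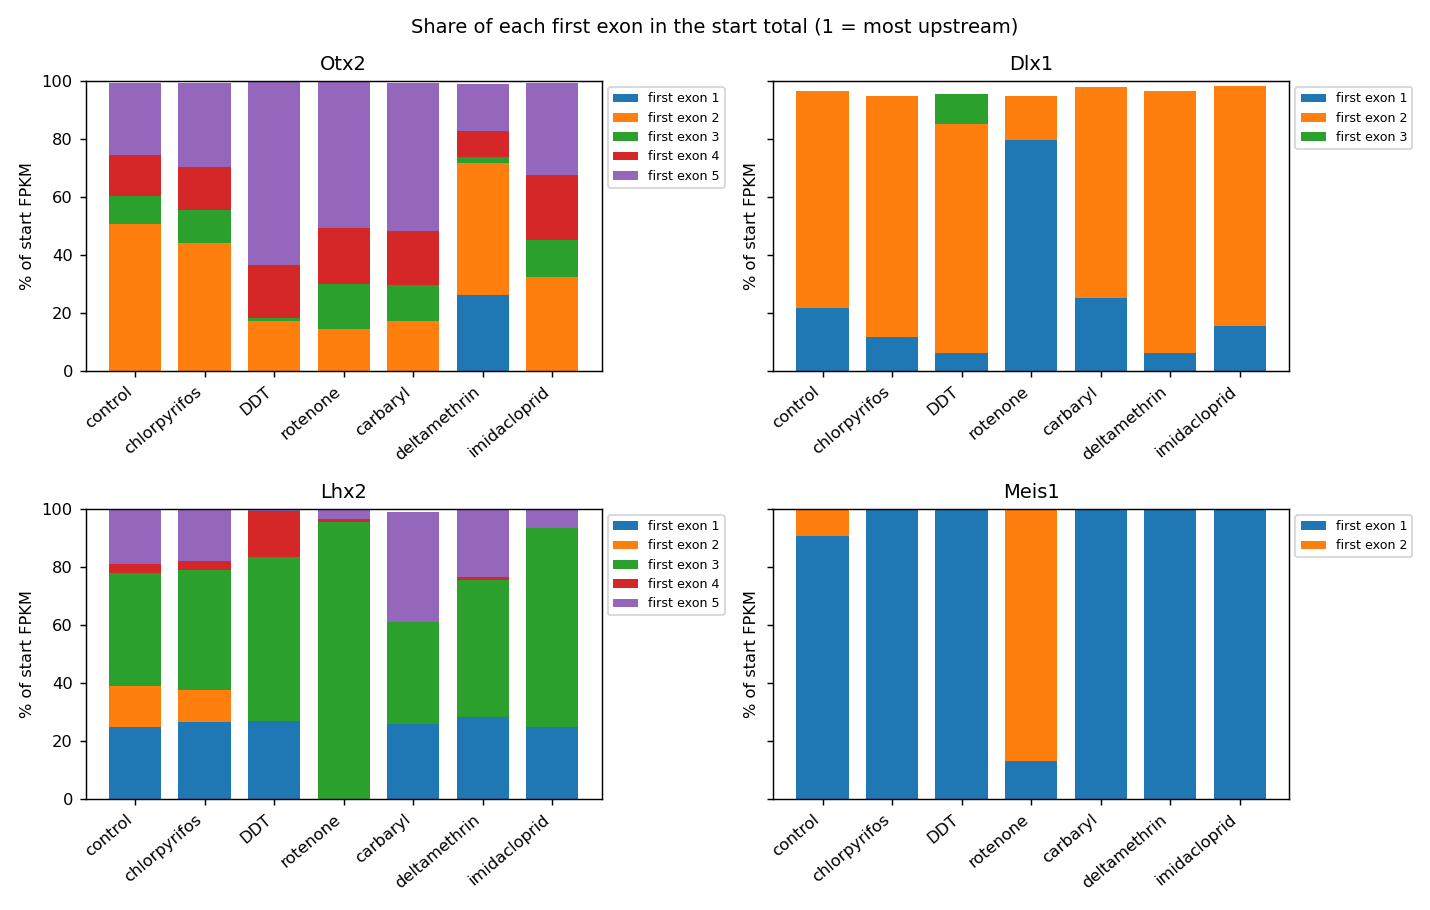
Percent of the start total held by each first exon of Otx2, Dlx1, Lhx2 and Meis1 in each library, numbered from the most upstream, for first exons that reach 5% in some library, so that bars can end just below 100%. In rotenone Meis1, Dlx1 and Lhx2 each show a first exon share unlike the other 6 libraries (Meis1 86.9% from first exon 2).

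The exon of Pax6 that changes its DNA binding is known as exon 5a. It is spliced into the paired domain, and the form that holds it binds other target sequences than the form without it. The whole exon of 42 bases is shown in capitals because its share differed between libraries. It lies at chr2:105684751-105684792 on the plus strand of GRCm38 and was read from the GENCODE M21 transcripts.

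Pax6 exon 5a: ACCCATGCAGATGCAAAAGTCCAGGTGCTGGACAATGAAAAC

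Transcripts with exon 5a stood at 0.712 FPKM in control, 0.793 in chlorpyrifos, 0.827 in DDT, 1.143 in rotenone, 0.605 in carbaryl, 4.74 in deltamethrin and 1.19 in imidacloprid. Transcripts without it stood at 10.1, 7.51, 7.58, 6.23, 6.53, 4.08 and 5.51 FPKM. The share with the exon was 53.7% in deltamethrin and between 6.57% and 17.8% in the other 6 libraries, with control lowest. The Pax6 first exon at 105676128 to 105676838 also had its largest share in deltamethrin. It held 48.8% of the start total there (4.73 FPKM) and 3.93% to 28.9% in the other 6 libraries. Whether exon 5a and this start lie on the same transcripts was not tested. A large shift in the share of a skipped exon was not confined to Pax6. Over all genes 2.54% of skipped exons moved by 45 points or more between deltamethrin and control.

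**Figure D5:**
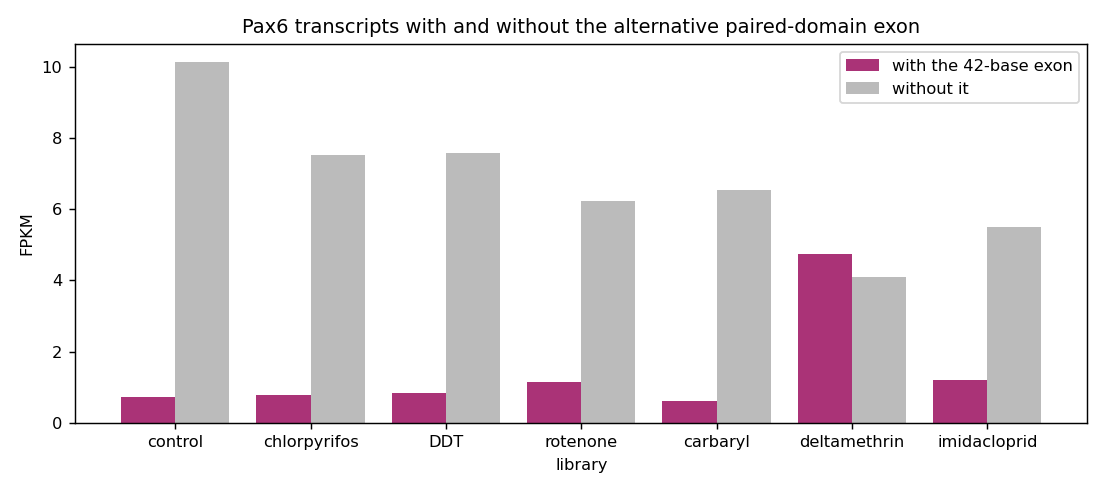
FPKM of Pax6 transcripts with and without the 42-base exon in each library, 1 library per pair of bars. In deltamethrin the form with the exon reaches 4.74 FPKM and exceeds the form without it (4.08 FPKM), while in the other 6 libraries the form without it is the higher.

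Of the skipped exons of members that could be compared, 1 of 11 moved by 25 points or more against control in chlorpyrifos (all exons 8.16%), 1 of 10 in DDT (8.24%), 1 of 11 in rotenone (7.74%), 2 of 11 in carbaryl (8.23%), 1 of 9 in deltamethrin (8.00%) and 1 of 11 in imidacloprid (8.41%). These counts are within 1 or 2 exons of the background. A share is taken over transcripts that join the same flanking exons, not over all transcripts of the gene. Another Pax6 exon, at 105683828 to 105683958, was included in 99.3% of transcripts in control, 97.7% in chlorpyrifos, 100% in rotenone and 90.3% in deltamethrin, but in 73.3% in DDT, 74.3% in carbaryl and 68.4% in imidacloprid. In every library the form without it had the same FPKM as the Pax6 first exon at 105679867 to 105679889. That was 2.65 FPKM in DDT, 2.18 in carbaryl and 2.51 in imidacloprid. Skipping of this exon therefore cannot be told apart from use of that start. The Pax6 exon at 105695306 to 105695456 was included in 65.3% of transcripts in chlorpyrifos and 100% elsewhere. Emx2 included its middle exon, at 59461662 to 59461846, in 42.1% of transcripts in rotenone and in 96.6% to 100% in the others. For Meis2, an exon at 116064092 to 116064295 was listed at 14.0 FPKM in carbaryl and 5.03 FPKM in rotenone and in no other library. It was 52.8% in carbaryl and 22.5% in rotenone of the 2 forms that have or skip it after the outermost first exon, where the Meis2 start total was 50.1 and 49.9 FPKM.

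Meis2 also has an exon in the later part of the gene with a longer and a shorter form. Its sequence is shown because the share of the longer form differed between libraries whose Meis2 level was the same. It lies at chr2:115867269-115867379, is written on the minus strand from the GENCODE M21 transcripts, and the 21 bases of the longer form only are in capitals.

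Meis2 exon: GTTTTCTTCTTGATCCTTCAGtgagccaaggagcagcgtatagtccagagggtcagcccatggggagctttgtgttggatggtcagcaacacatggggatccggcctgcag

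The longer form held 18% in control, 50.7% in chlorpyrifos, 29.1% in DDT, 21.2% in rotenone, 31.6% in carbaryl, 28.8% in deltamethrin and 43.7% in imidacloprid. Chlorpyrifos was highest and control lowest, at the same gene level of 38.7 FPKM in both libraries. This exon was picked after its values had been seen.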

How the data were processed

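Per the labels' protocols, total RNA was taken from 7 cultures, 1 for each treatment, and groups follow the sample titles. Per the submitters' processing notes, the tools were HISAT2 2.0.1, cutadapt 1.9.1 and bcl2fastq 2.17.1.14, and the build was GRCm38. For the tool that made the FPKM, the name is not given in the sources used. The deposited files list FPKM per transcript-structure event above 0, per the file headers, and the authors' FPKM were used with no further scaling. The lowest value is 1e-06 FPKM, so reads cannot be counted back and no interval is given.

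Distinct start and end events were summed per gene with Python 3.11.15, pandas 2.3.3 and numpy 2.4.6. Figures used matplotlib 3.10.9. The deposited gene identifier names a whole merged locus, so that Otx2 and Meis2 events carry another gene's name. It was therefore corrected by matching the inner boundary of first and last exons to GENCODE M21 of the same build, which moved 7.71% of start and 4.82% of end FPKM. This correction was chosen after seeing the data. Events on the strand opposite to a member (4 events, up to 0.752 FPKM) and single-exon genes were left out. An end under 5% of the other counts as missing. Genes entered comparisons with a mean of at least 1 FPKM and start and end totals within 0.3 on the log2 scale, which gave 6318 genes. Ends disagreed for 1768 further genes. Folds use a pseudocount of 1 FPKM, and a call is 2-fold or more. Start and exon shares were compared where the total was at least 5 FPKM in both libraries, with a shift of 25 percentage points as the call. The summing and counting steps were tested on simulated data. Named genes are every member, plus, from the other lists, up to 4 genes with the highest mean and genes past 2-fold with a mean of at least 5 FPKM, and genes singled out because they are known markers of a region. The members and lists were chosen with earlier results of these data known. Some genes that this rule names are left out of the text.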

Additional observations from a re-analysis of the deposited data

How the results depend on the processing

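No paired analysis was possible because each group has 1 library, and leaving out a library would leave no group to compare. The count of members at 2-fold in rotenone was 1, and it was 0 by end totals only, by the larger of the 2 totals, with the median of the 6 other libraries as reference, and, chosen after seeing the data, where both totals had to pass without the agreement filter. In each case the gene lost was Foxj1, whose rotenone fold ran from -1.85 to -0.74 over the settings. Its deltamethrin fold ran from -2.19 to -1.30 and stayed past 2-fold. The fore- and midbrain sum had a median of 92.0 FPKM over the 7 libraries, and of 101 FPKM by start totals only and 81.8 FPKM by end totals only. It was 72.5 FPKM with the deposited gene identifier alone, a setting added after seeing the data, since Otx2 events then count for another gene. Of the other main counts and sums under alternatives, 81 stayed within their limits. Of the folds of single members, 737 stayed within theirs, 25 moved and 0 reversed a call. The depth is unknown, and values under 1 FPKM were not compared.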

Other observations

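Signalling genes that pattern the neural tube were looked at. Of 11 Sonic hedgehog pathway genes, 7 reached a mean of 1 FPKM and 4 were compared. The receptor component Smo stood at 31.7 to 34.8 FPKM and the receptor Ptch1 at 11.1 to 12.6 FPKM, while the ligand Shh stood at 1.36 to 1.94 FPKM and the target Gli1 did not reach a mean of 1 FPKM. Of 18 retinoic acid genes, 10 reached 1 FPKM and 9 were compared. Cyp26b1, which degrades retinoic acid, stood at 23.2 to 31.0 FPKM, whereas the synthesis enzyme Aldh1a1 was not listed and Aldh1a2 was listed under 1 FPKM.

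Of 21 Wnt, BMP and FGF genes, 13 reached 1 FPKM and 10 were compared. Dusp6, a feedback inhibitor of FGF signalling, stood at 104 to 118 FPKM, Id3, a BMP target, at 78.0 to 106 FPKM, and Wnt7a at 21.1 to 28.8 FPKM. The ligands Fgf8, Bmp2, Bmp4 and Wnt3a were not listed. No compared gene on these 3 lists differed 2-fold from control in any insecticide library. Genes whose ends disagreed, or that had only a start or an end total, were not compared. Among these, Gli2 of the Sonic hedgehog list had start totals of 7.84 FPKM in control and 1.22 FPKM in rotenone. In the other insecticide libraries they were 4.75 to 5.83 FPKM.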
